A study of Arabidopsis thaliana with 6 samples.

Results

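The genes described here are 35 early auxin response genes of Arabidopsis thaliana: 29 Aux/IAA genes (IAA1 to IAA20 and IAA26 to IAA34), 5 GH3 genes (GH3.1, GH3.2, GH3.3, GH3.5 and GH3.6) and the kinase gene PID. They were chosen by name from the 33489 genes counted, by a rule that uses no measured value, though with earlier results of these data known. Of the 35, 31 had enough counts to be tested between the genotypes. IAA15, IAA20, IAA33 and IAA34 did not, and their counts are given without a test.

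Aux/IAA proteins are short-lived repressors that bind auxin response factors and recruit TOPLESS co-repressors to their target genes. Auxin joins a receptor of the TIR1/AFB family to a short degron in the Aux/IAA protein, which leads to degradation of the repressor and release of the response factor. Most Aux/IAA and GH3 genes are themselves targets of these factors and are induced by auxin, so they form a feedback. Aux/IAA proteins repress the response, and GH3 enzymes that join auxin to amino acids lower the pool of free auxin. PID is a protein kinase that acts on PIN auxin exporters.

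Transcript levels were measured by sequencing polyadenylated RNA from whole seedlings that had spent 14 days on plates. The line zdp-1 ape2-2, labelled as a knockout of ZDP and APE2, was compared with the wild type Col-0, with 3 libraries (A, B and C) in each genotype. ZDP and APE2 encode a DNA 3′ phosphatase and an apurinic/apyrimidinic endonuclease that act on DNA ends during repair. The labels name no auxin treatment in any sample, and they do not say whether the libraries of a genotype came from separate cultures. The p-values below therefore rest on the spread among these 6 libraries alone, which may be technical.

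Library totals were 37241739, 37169973 and 37154781 counts in zdp-1 ape2-2 A, B and C, and 36994901, 37222185 and 31190605 in Col-0 A, B and C. Levels are given as RPKM, computed here as CPM (TMM-scaled counts relative to library size) per kilobase of exon. Both disrupted genes kept reads in the mutant. ZDP had 7.56 ± 0.604 RPKM in zdp-1 ape2-2 and 12.4 ± 0.579 in Col-0 (SD, n = 3 each), a log2 fold change of -0.71 ± 0.05 (SE), and APE2 had 2.29 ± 0.0482 in zdp-1 ape2-2 and 3.26 ± 0.344 in Col-0, a log2 fold change of -0.51 ± 0.08 (SE). Exons of another gene lie over 33.6% of those of APE2, and counts over a whole gene do not show where the transcript is disrupted. The libraries are bulk RNA, in which fewer cells of a type and less RNA per cell cannot be told apart.

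Most Aux/IAA proteins carry the degron through which auxin acts on them, and the coding sequence around it is shown for genes to which the results below turn. The 12 capitals are the 4 codons of the degron core (Gly-Trp-Pro-Pro), found by searching each coding sequence in frame, with 9 bases before and 18 after, read 5′ to 3′ on the coding strand of TAIR10.1. The windows lie at chr1:5366266-5366304 (minus strand) for IAA5, chr1:19673314-19673352 (minus) for IAA6, chr3:5264307-5264345 (plus) for IAA19, chr1:1129010-1129048 (minus) for IAA3, chr5:17550740-17550778 (plus) for IAA4 and chr4:15583942-15583980 (plus) for IAA29.
IAA5: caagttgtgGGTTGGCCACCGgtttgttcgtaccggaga
IAA6: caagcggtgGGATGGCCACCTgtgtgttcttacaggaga
IAA19: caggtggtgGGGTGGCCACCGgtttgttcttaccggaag
IAA3: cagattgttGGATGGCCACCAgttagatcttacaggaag
IAA4: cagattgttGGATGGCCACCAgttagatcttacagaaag
IAA29: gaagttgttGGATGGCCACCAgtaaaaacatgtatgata
The core was found in 23 of the 29 Aux/IAA genes and in none of IAA20, IAA30, IAA31, IAA32, IAA33 and IAA34, which are known to encode proteins that lack a full degron. The sisters IAA3 and IAA4 shared 38 of the 39 bases of the window. IAA5, IAA6 and IAA19, which form another sister group, shared 31 to 33 of 39 with each other. IAA29 keeps the core in a window that matched IAA15 at 23 of 39. The 2 genes were grouped together beforehand, and windows were compared only within such groups.

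Across the 35 genes the level spanned 3 orders of magnitude, from IAA9 with 119 ± 1.69 RPKM in zdp-1 ape2-2 and 123 ± 2.21 in Col-0 down to IAA15 with 0.0903 ± 0.0602 in zdp-1 ape2-2 and 0.0441 ± 0.0170 in Col-0 (SD, n = 3 each). IAA9, IAA8 and IAA16 together made up 46.8 to 48.4% of the summed Aux/IAA level in zdp-1 ape2-2 libraries and 46.9 to 48.4% in Col-0 libraries. The 6 genes without a core made up 0.425 to 0.616% in zdp-1 ape2-2 and 0.405 to 0.516% in Col-0, so almost all Aux/IAA transcript of these seedlings came from genes with a degron, in both genotypes.

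**Figure D1:**
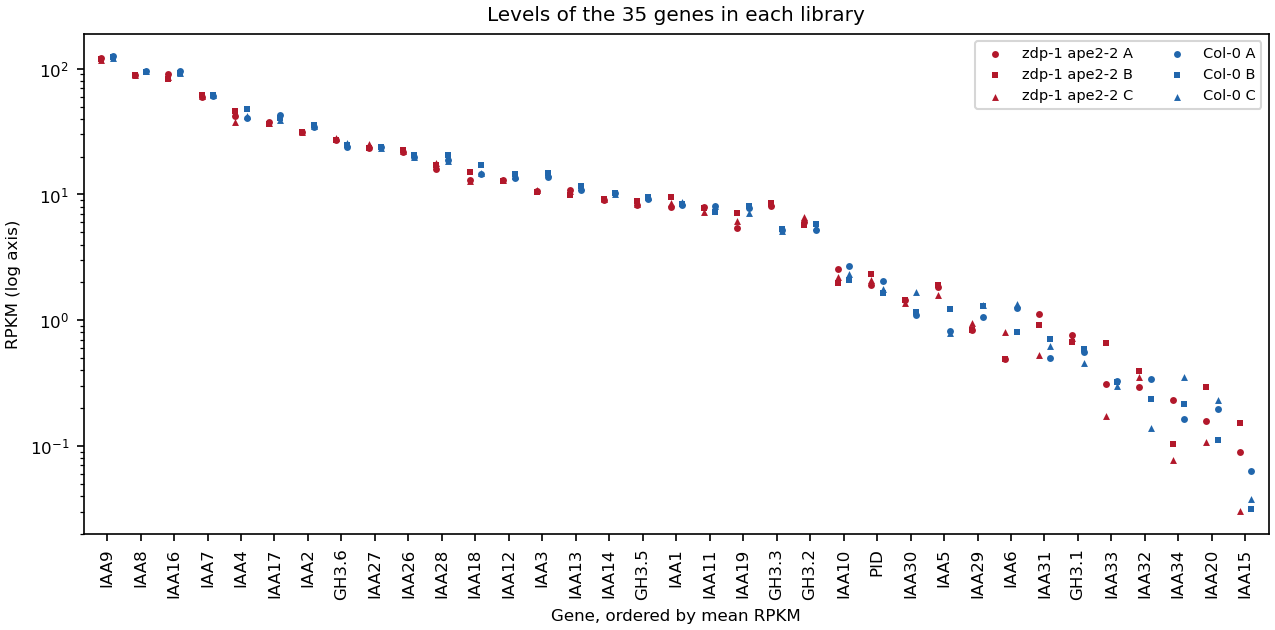
Level of each of the 35 genes in each library, in RPKM on a log axis, ordered by the mean over all 6 libraries; red marks are zdp-1 ape2-2, blue marks Col-0, and the shapes are libraries A, B and C. The order runs from IAA9 (119 RPKM in zdp-1 ape2-2 and 123 in Col-0) to IAA15, and the spread between libraries widens at the low end.

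To ask whether the auxin response genes differed between the genotypes, all genes past the filter were fitted together with edgeR's quasi-likelihood test, and a gene was called where its p, adjusted after Benjamini and Hochberg over the 21182 genes tested, was below 0.05. Of the 31 auxin response genes tested, 6 were higher in zdp-1 ape2-2 (19.4%) and 14 were lower (45.2%). Among all genes tested, 22.2% were called higher and 21.2% lower. The share of auxin response genes called higher was thus near that of all genes, and the share called lower was above it. Highly expressed genes were called lower more often: among genes above 30 CPM 23.3% were higher and 35.4% lower, and of the 10 auxin response genes at that level 2 were higher and 4 lower. Between 1 and 30 CPM, 21.9% of all genes were higher and 15.9% lower, while of the 18 auxin response genes there 4 were higher and 9 lower.

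The changes were mostly small. The median log2 fold change of the 31 genes was -0.05, beside 0.00 for all genes tested, whose middle 50% ran from -0.12 to 0.14. Only IAA5, GH3.3 and IAA6 were both called and changed by at least 1.5-fold, as were 7.08% of all genes tested. The 3 libraries of zdp-1 ape2-2 lay wholly outside the range of the 3 Col-0 libraries for 15 of the 31 genes, 5 of them higher and 10 lower (48.4%), beside 50.3% of all genes. When libraries were scaled by their totals alone, 7 of the auxin response genes were called higher and 6 lower, and 6964 of all genes higher and 2717 lower, against 4699 higher and 4498 lower with TMM scaling.

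**Figure D2:**
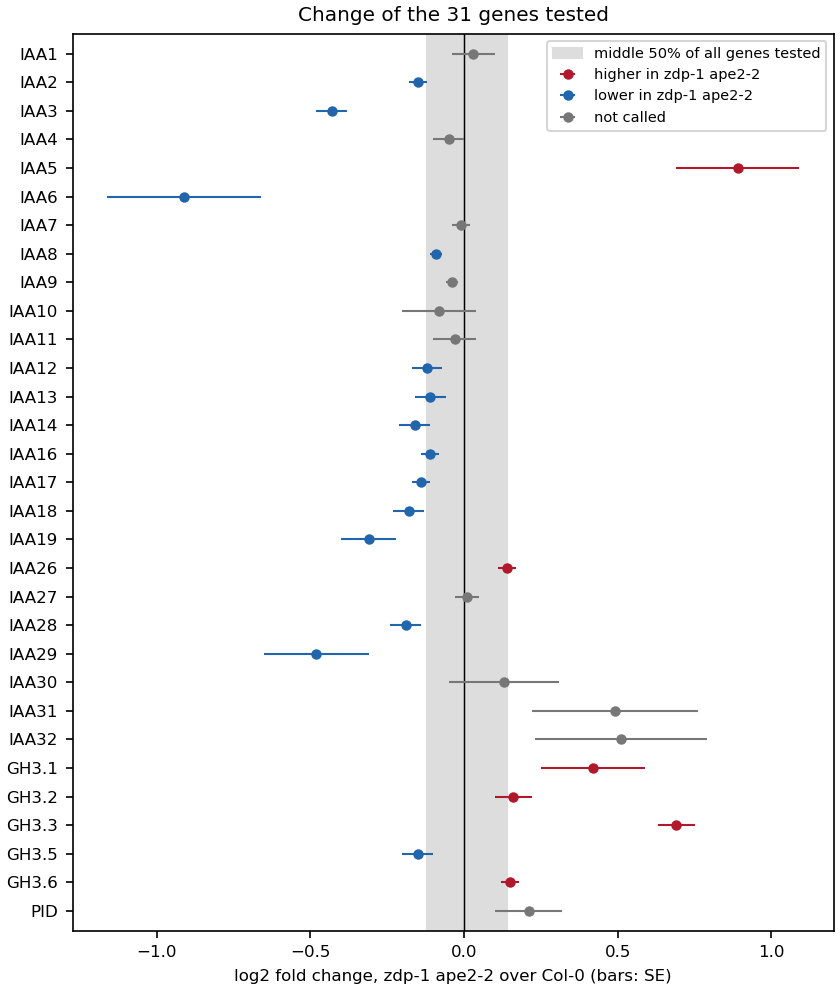
Log2 fold change of each gene tested, zdp-1 ape2-2 over Col-0, with its SE as the bar; red genes were called higher, blue lower and grey not called, and the band is the middle 50% of all genes tested. IAA5 (0.89) and GH3.3 (0.69) lie farthest to the right and IAA6 (-0.91) farthest to the left, while most Aux/IAA genes lie in or just below the band.

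The GH3 genes were all called, 4 of the 5 of them higher in zdp-1 ape2-2, beside 22.2% higher and 21.2% lower among all genes tested. The higher calls numbered 4 with library totals alone, 2 with DESeq2 and 1 at an assumed coefficient of variation of 0.1. Over all 21182 genes tested the higher calls numbered 6964, 3474 and 1668 in these settings, against 4699 in the main fit. GH3.3 (AT2G23170, chr2:9863855-9866562, minus strand), an amido synthetase that joins auxin to amino acids, had 659, 684 and 689 counts in zdp-1 ape2-2 A, B and C, against 396, 412 and 328 in Col-0 A, B and C. Per length and depth these were 8.16, 8.49 and 8.59 RPKM in zdp-1 ape2-2 and 5.18, 5.33 and 5.08 RPKM in Col-0. All 3 mutant libraries lay above all wild-type libraries, with a gap several times the spread within either genotype. The log2 fold change was 0.69 ± 0.06 (SE; edgeR adjusted p = 1.53e-13), an increase of 61.7%.

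The other GH3 genes changed by less. GH3.6 (AT5G54510, chr5:22130964-22133688), also named DFL1 and an auxin-conjugating enzyme, was the most abundant of the 5, with 26.9, 27.2 and 27.9 RPKM in zdp-1 ape2-2 and 23.9, 24.6 and 25.5 in Col-0. Its groups did not overlap, and the log2 fold change was 0.15 ± 0.03 (SE; edgeR adjusted p = 0.000172). GH3.2 (AT4G37390), which also conjugates auxin, had 6.08, 5.72 and 6.65 RPKM in zdp-1 ape2-2 and 5.19, 5.77 and 5.56 in Col-0. Here mutant library B fell within the wild-type range, and the call was marginal, at 0.16 ± 0.06 (SE; edgeR adjusted p = 0.0372). GH3.1 (AT2G14960), the least abundant of the group, had 65, 57 and 61 counts in zdp-1 ape2-2 and 45, 48 and 31 in Col-0. Its groups did not overlap either, at a log2 fold change of 0.42 ± 0.17 (SE; edgeR adjusted p = 0.0429). The calls of GH3.1 and GH3.2 were lost when zdp-1 ape2-2 A, zdp-1 ape2-2 C, Col-0 A or Col-0 C was left out, and with DESeq2.

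GH3.5 (AT4G27260) was the one GH3 gene that was lower. This enzyme, also named WES1, accepts auxin and salicylate. It had 8.30, 8.83 and 8.46 RPKM in zdp-1 ape2-2 and 9.22, 9.57 and 9.56 in Col-0, without overlap. The log2 fold change was -0.15 ± 0.05 (SE; edgeR adjusted p = 0.00957), and the call was lost without zdp-1 ape2-2 A, with DESeq2 and with library totals alone. GH3.3 and GH3.5 thus stood at close levels in zdp-1 ape2-2, 8.42 ± 0.227 and 8.53 ± 0.274 RPKM, whereas in Col-0 they were 5.2 ± 0.129 and 9.45 ± 0.197 RPKM (SD, n = 3 each). Summed over the 5 genes, the GH3 level was 50.2, 51.0 and 52.3 RPKM in zdp-1 ape2-2 and 44.0, 45.9 and 46.2 in Col-0.

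PID (AT2G34650) had 1.89, 2.34 and 2.1 RPKM in zdp-1 ape2-2 and 2.05, 1.66 and 1.78 in Col-0. The groups overlapped through zdp-1 ape2-2 A and Col-0 A, and the log2 fold change of 0.21 ± 0.11 (SE; edgeR adjusted p = 0.114) did not pass. Leaving out either of these libraries, or scaling by library totals alone, brought it past the threshold.

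**Figure D3:**
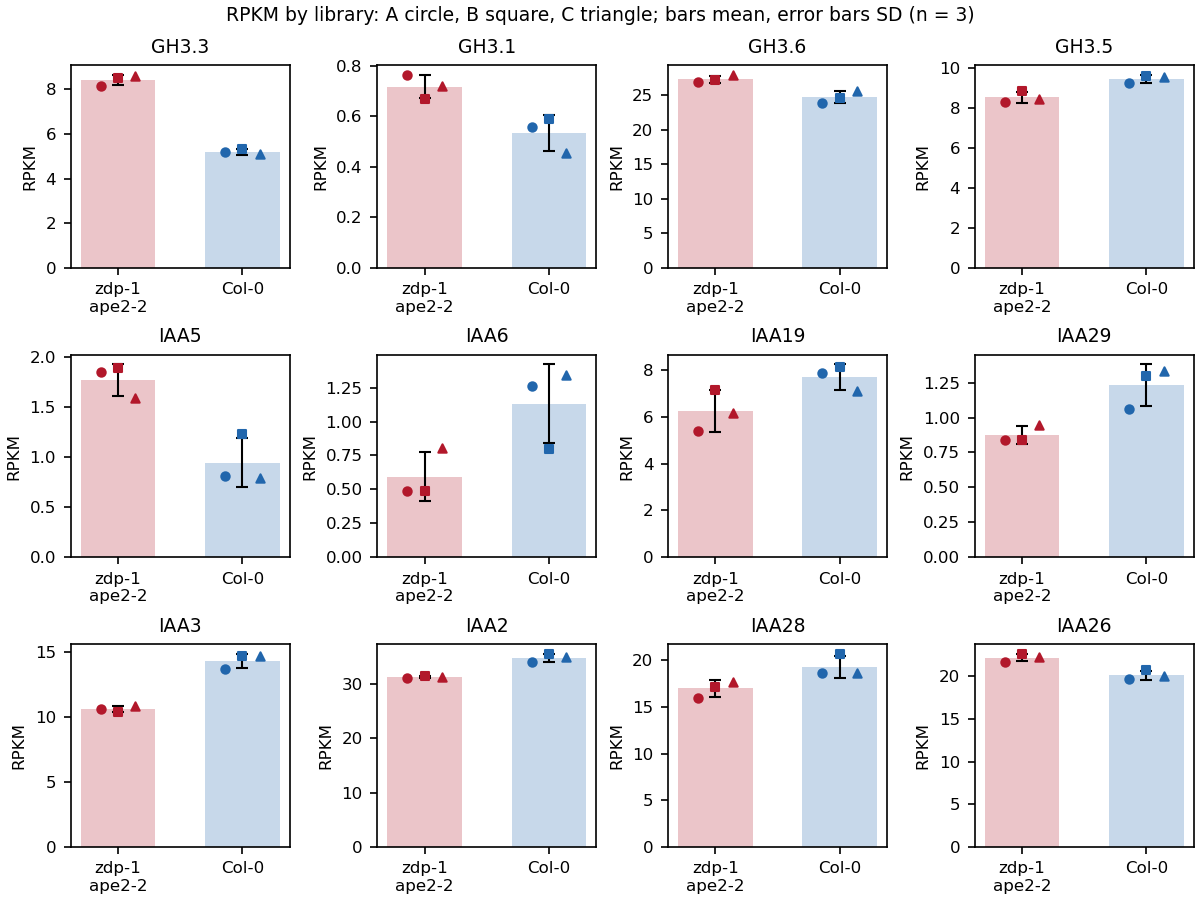
RPKM of 12 called genes in each library, zdp-1 ape2-2 in red and Col-0 in blue; bars are means of 3 libraries, error bars their SD, and every axis starts at 0. GH3.3 and IAA5 are higher and IAA3 lower in zdp-1 ape2-2 with no overlap of libraries, whereas IAA6 and IAA19 overlap.

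Among the Aux/IAA genes, 2 of the 25 tested were higher in zdp-1 ape2-2 and 13 lower, beside 22.2% higher and 21.2% lower among all genes tested, and the median of the 25 log2 fold changes was -0.09. The lower calls numbered 6 with library totals alone, 9 with DESeq2 and 2 at an assumed coefficient of variation of 0.1. Over all 21182 genes tested the lower calls numbered 2717, 3329 and 760 in these settings, against 4498 in the main fit. All 15 Aux/IAA genes called in the main fit belonged to the 22 tested genes with a degron core, whose median was -0.11. None of the 3 tested genes without a core was called.

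IAA5, IAA6 and IAA19 moved in different directions although they form a sister group. IAA5 (AT1G15580, chr1:5365512-5366497, minus strand), an Aux/IAA repressor known for its induction by auxin and by stress, had 55, 56 and 47 counts in zdp-1 ape2-2 and 23, 35 and 19 in Col-0. In RPKM these were 1.85, 1.89 and 1.59 in zdp-1 ape2-2 and 0.816, 1.23 and 0.798 in Col-0. The genotypes did not overlap, with Col-0 B nearest to the mutant. On the log2 scale the difference was 0.89 ± 0.20 (SE; edgeR adjusted p = 0.000395), the largest increase among the 31 genes.

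IAA6 (AT1G52830, chr1:19672476-19673652, minus strand), known from the shy1 mutant, had 16, 16 and 26 counts in zdp-1 ape2-2 and 39, 25 and 35 in Col-0. Its levels were 0.490, 0.491 and 0.802 RPKM in zdp-1 ape2-2 and 1.26, 0.80 and 1.34 RPKM in Col-0. The lowest wild-type library, B, lay at the level of the highest mutant library, C, so the genotypes touched. IAA6 changed by -0.91 ± 0.25 on the log2 scale (SE; edgeR adjusted p = 0.00312), on counts low enough that counting error is a large part of the spread.

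IAA19 (AT3G15540, chr3:5264001-5265695, plus strand), also named MSG2 and known for its part in hypocotyl bending, was higher in level than its sisters. It had 5.37, 7.16 and 6.15 RPKM in zdp-1 ape2-2 and 7.87, 8.12 and 7.08 in Col-0. Mutant library B reached the wild-type range. The log2 fold change was -0.31 ± 0.09 (SE; edgeR adjusted p = 0.00331), and the call was lost without zdp-1 ape2-2 A, the lowest library.

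IAA3 (AT1G04240, chr1:1128149-1129689, minus strand), the SHY2 repressor that acts in root meristem size and light responses, had the smallest adjusted p of the genes called lower. Its counts were 548, 536 and 555 in zdp-1 ape2-2 and 671, 725 and 606 in Col-0. Scaled, these were 10.6, 10.4 and 10.8 RPKM in zdp-1 ape2-2 and 13.7, 14.7 and 14.7 in Col-0, without overlap and with a narrow spread in both genotypes. The log2 fold change was -0.43 ± 0.05 (SE; edgeR adjusted p = 4.32e-09). Exons of AT1G04230, on the opposite strand, cover 39.6% of the exon bases of IAA3, and the strand setting of the counting is not known. AT1G04230 itself had a log2 fold change of 0.04 (edgeR adjusted p = 0.637).

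The sisters of IAA3 did not follow it in size. IAA2 (AT3G23030) had 31.2, 31.6 and 31.4 RPKM in zdp-1 ape2-2 and 34.2, 35.6 and 35.1 in Col-0, with no overlap and a log2 fold change of -0.15 ± 0.03 (SE; edgeR adjusted p = 0.000281). IAA1 (AT4G14560), an early auxin-induced gene, stood at 0.03 ± 0.07, and IAA4 (AT5G43700), whose degron window is nearly the same as that of IAA3, at -0.05 ± 0.05 (SE), neither of them called. The 4 genes of this sister group thus held 2 called lower and 2 not called.

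The group of IAA7, IAA14, IAA16 and IAA17 holds genes whose degron mutants axr2, slr and axr3 are strongly auxin-resistant. IAA16 (AT3G04730) had 90.7, 82.1 and 86.0 RPKM in zdp-1 ape2-2 and 95.3, 92.5 and 91.9 in Col-0, a log2 fold change of -0.11 ± 0.03 (SE; edgeR adjusted p = 0.0011). IAA17 (AT1G04250, AXR3) had 37.9, 36.6 and 36.9 RPKM in zdp-1 ape2-2 and 42.6, 40.9 and 39.1 in Col-0, a change of -0.14 ± 0.03 (SE; edgeR adjusted p = 0.000853). IAA14 (AT4G14550, SLR), which represses lateral root initiation, had 9.09, 9.17 and 9.13 RPKM in zdp-1 ape2-2 and 10.3, 10.2 and 10.1 in Col-0, a change of -0.16 ± 0.05 (SE; edgeR adjusted p = 0.00593). In these 3 genes every mutant library lay below every wild-type library, yet no call held when libraries were scaled by their totals alone, where the log2 fold changes were nearer to 0. IAA7 (AT3G23050, AXR2) was at 60.8 ± 0.736 RPKM in zdp-1 ape2-2 and 61.2 ± 0.927 in Col-0 (SD, n = 3 each), a log2 fold change of -0.01 ± 0.03 (SE), which turned to 0.05 with library totals alone.

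IAA8, IAA9 and IAA27 include the most abundant Aux/IAA transcripts. IAA8 (AT2G22670) had 88.3, 88.7 and 89.5 RPKM in zdp-1 ape2-2 and 95, 94.1 and 95.4 in Col-0. The difference, -0.09 on the log2 scale (edgeR adjusted p = 0.00123), was larger than the spread within either genotype and was not called with library totals alone. IAA9 (AT5G65670), a repressor of leaf and vascular development, had a log2 fold change of -0.04 ± 0.02 (SE) and was not called. IAA27 (AT4G29080), also named PAP2, was at 0.01 ± 0.04 (SE) and was not called either.

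The embryonic regulators IAA12 and IAA13 were both called lower by a small margin. IAA12 (AT1G04550), the BODENLOS repressor of embryonic root formation, had 13.1, 12.9 and 13 RPKM in zdp-1 ape2-2 and 13.6, 14.6 and 14.1 in Col-0. IAA13 (AT2G33310), its partner, had 10.9, 9.86 and 10.7 in zdp-1 ape2-2 and 10.8, 11.7 and 11.5 in Col-0, with overlap. Their log2 fold changes were -0.12 ± 0.05 (SE; edgeR adjusted p = 0.0435) and -0.11 ± 0.05 (SE; edgeR adjusted p = 0.0488), the weakest of the lower calls. The call was lost under 8 of 13 alternatives for IAA12, including the removal of any library but Col-0 A, and under 7 of 13 for IAA13, including the removal of zdp-1 ape2-2 B, Col-0 B or Col-0 C. IAA10 (AT1G04100) and IAA11 (AT4G28640) were not called, at -0.08 ± 0.12 and -0.03 ± 0.07 (SE).

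IAA18, IAA26 and IAA28 split in direction. IAA18 (AT1G51950) had 13.1, 15.1 and 12.9 RPKM in zdp-1 ape2-2 and 14.5, 17.2 and 14.9 in Col-0, with library B highest in both genotypes and the groups overlapping through it. IAA28 (AT5G25890), a repressor of lateral root formation, had 16, 17.2 and 17.7 RPKM in zdp-1 ape2-2 and 18.7, 20.7 and 18.6 in Col-0, without overlap. IAA26 (AT3G16500), also named PAP1, had 21.7, 22.6 and 22.3 RPKM in zdp-1 ape2-2 and 19.7, 20.7 and 20.0 in Col-0, also without overlap. IAA26 was the only Aux/IAA gene called higher beside IAA5, at 0.14 ± 0.03 on the log2 scale (SE; edgeR adjusted p = 0.00105). IAA18 changed by -0.18 ± 0.05 (SE; edgeR adjusted p = 0.00511) and IAA28 by -0.19 ± 0.05 (SE; edgeR adjusted p = 0.00108), and the call of IAA18 was lost without Col-0 B, with DESeq2 and with library totals alone.

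IAA29 (AT4G32280), a gene induced in shade and warmth through PIF transcription factors, had 41, 41 and 46 counts in zdp-1 ape2-2 and 49, 61 and 52 in Col-0. In RPKM this was 0.838, 0.840 and 0.947 in zdp-1 ape2-2 and 1.06, 1.30 and 1.33 in Col-0, without overlap. The log2 fold change was -0.48 ± 0.17 (SE; edgeR adjusted p = 0.0206), and the call was lost without any one of zdp-1 ape2-2 A, zdp-1 ape2-2 B, Col-0 B and Col-0 C, and with DESeq2. IAA15 (AT1G80390), grouped with it here, had 3, 5 and 1 counts in zdp-1 ape2-2 and 2, 1 and 1 in Col-0, too few to test.

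The genes without a degron core were rare. IAA30 (AT3G62100) had 1.42 ± 0.0562 RPKM in zdp-1 ape2-2 and 1.32 ± 0.316 in Col-0, IAA31 (AT3G17600) had 0.855 ± 0.296 in zdp-1 ape2-2 and 0.610 ± 0.106 in Col-0, and IAA32 (AT2G01200) had 0.348 ± 0.0499 in zdp-1 ape2-2 and 0.239 ± 0.10 in Col-0 (SD, n = 3 each). Their log2 fold changes of 0.13 ± 0.18, 0.49 ± 0.27 and 0.51 ± 0.28 (SE) did not pass in the edgeR test (adjusted p = 0.591, 0.138 and 0.146), and the libraries of the genotypes overlapped in all 3. IAA31 was called without zdp-1 ape2-2 C and IAA32 without Col-0 A. IAA20 (AT2G46990), with 6, 11 and 4 counts in zdp-1 ape2-2 and 7, 4 and 7 in Col-0, showed no difference detectable at this depth. The same held for IAA33 (AT5G57420), with 9, 19 and 5 counts in zdp-1 ape2-2 and 9, 9 and 7 in Col-0, and for IAA34 (AT1G15050), with 9, 4 and 3 in zdp-1 ape2-2 and 6, 8 and 11 in Col-0.

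Summed over the 29 genes, the Aux/IAA level was 620, 620 and 612 RPKM in zdp-1 ape2-2 and 651, 660 and 647 in Col-0. The mutant sums lay below the wild-type sums in all libraries. With library totals alone the sums were 635, 634 and 623 in zdp-1 ape2-2 and 636, 647 and 633 in Col-0, and the genotypes overlapped. The GH3 sums given above kept their order with library totals alone, at 51.4, 52.1 and 53.3 RPKM in zdp-1 ape2-2 and 43.0, 45 and 45.1 in Col-0.

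Some genes varied between libraries of a genotype well beyond counting error. IAA4 had a coefficient of variation of 10% in zdp-1 ape2-2 and 8.55% in Col-0, where counting alone gives 2.15% and 2.22%. IAA18 had 8.79% in zdp-1 ape2-2 and 9.26% in Col-0, where counting gives 3.28% and 3.24%. In both genes library B was the highest of its genotype, at 109% of the genotype mean for IAA4 in zdp-1 ape2-2 and 110% in Col-0, and at 110% for IAA18 in zdp-1 ape2-2 and 111% in Col-0. Over the 12746 genes above 10 CPM, the deviations of same-lettered libraries had correlations of -0.02, 0.07 and -0.01 for A, B and C. The letters were therefore not treated as pairs, though such low correlations do not exclude a pairing. IAA14 varied little in both genotypes, with 0.430% in zdp-1 ape2-2 and 1.16% in Col-0, where counting gives 3.91% and 3.89%.

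**Figure D4:**
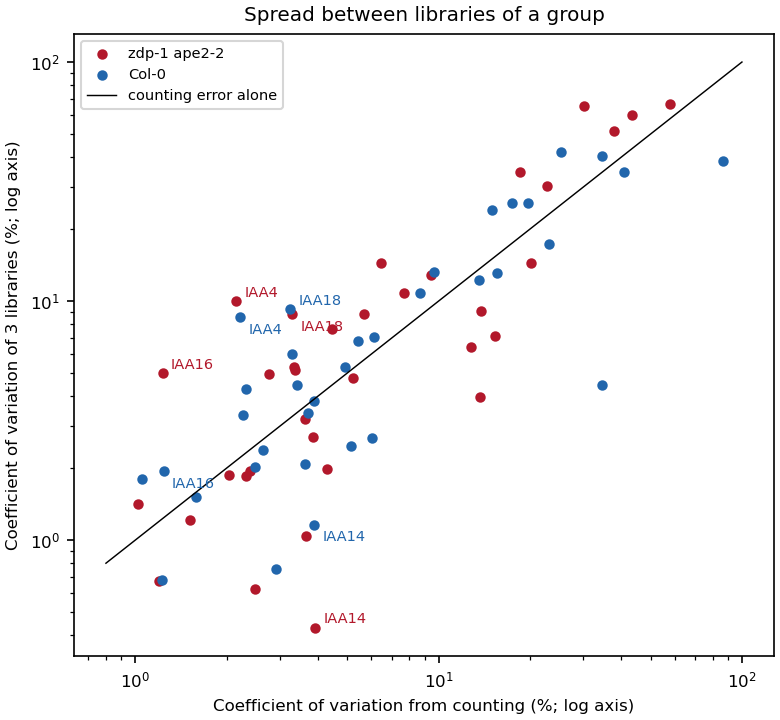
Coefficient of variation of each of the 35 genes over the 3 libraries of a genotype against the value that counting alone gives, both in percent on log axes; red is zdp-1 ape2-2, blue Col-0, and the line marks equality. IAA4 and IAA18 lie above the line in both genotypes (10% and 8.79% in zdp-1 ape2-2, 8.55% and 9.26% in Col-0), IAA16 in zdp-1 ape2-2 (5.0%), and IAA14 lies below it.

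Because many of these genes are known targets of auxin response factors, their promoters were searched for the letters of the auxin response element in the 250 bases before and the first 50 bases of the gene. TGTCTC was sought on both strands, as was TGTCGG, a form that response factors bind more tightly in vitro, and neither motif contains the other. The promoters of the 3 genes that changed by at least 1.5-fold, and of IAA19, are printed 5′ to 3′ on the strand of the gene, with each match on either strand in capitals. They lie in TAIR10.1 at chr2:9866513-9866812 (minus) for GH3.3, chr1:5366448-5366747 (minus) for IAA5, chr1:19673603-19673902 (minus) for IAA6 and chr3:5263751-5264050 (plus) for IAA19.
GH3.3: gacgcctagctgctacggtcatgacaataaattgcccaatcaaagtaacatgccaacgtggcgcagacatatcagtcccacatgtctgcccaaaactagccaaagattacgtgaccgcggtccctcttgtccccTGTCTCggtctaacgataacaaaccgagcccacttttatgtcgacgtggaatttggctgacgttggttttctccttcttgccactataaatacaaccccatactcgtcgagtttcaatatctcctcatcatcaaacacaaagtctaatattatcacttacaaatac
IAA5: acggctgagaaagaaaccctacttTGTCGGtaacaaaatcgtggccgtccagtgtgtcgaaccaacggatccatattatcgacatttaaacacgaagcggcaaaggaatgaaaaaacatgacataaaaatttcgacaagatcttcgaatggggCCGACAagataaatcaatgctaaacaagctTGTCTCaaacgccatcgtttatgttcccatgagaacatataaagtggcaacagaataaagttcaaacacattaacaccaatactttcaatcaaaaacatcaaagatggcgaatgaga
IAA6: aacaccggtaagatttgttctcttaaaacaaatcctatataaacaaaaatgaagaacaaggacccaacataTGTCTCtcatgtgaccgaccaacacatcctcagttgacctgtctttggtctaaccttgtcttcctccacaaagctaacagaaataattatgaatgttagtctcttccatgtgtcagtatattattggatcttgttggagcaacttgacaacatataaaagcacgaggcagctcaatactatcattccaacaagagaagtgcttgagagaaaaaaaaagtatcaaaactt
IAA19: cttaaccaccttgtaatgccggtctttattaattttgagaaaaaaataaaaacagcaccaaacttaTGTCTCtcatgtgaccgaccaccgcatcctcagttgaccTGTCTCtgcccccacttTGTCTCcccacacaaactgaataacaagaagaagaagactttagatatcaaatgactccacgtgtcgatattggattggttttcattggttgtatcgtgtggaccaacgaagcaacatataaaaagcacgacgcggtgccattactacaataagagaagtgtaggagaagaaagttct
GH3.3 held 1 TGTCTC at 116 bases before the gene start. IAA5, which was higher, held TGTCGG at 2 places and TGTCTC at 1, whereas its sisters IAA6 and IAA19, which were lower, held TGTCTC alone, at 1 and 3 places. This contrast did not extend to the other genes. TGTCGG was in 1 of the 6 genes called higher, 3 of the 14 called lower and 2 of the 11 not called. The most distal match in IAA6 and in IAA19 stands in a stretch the promoters share: from this motif on, 42 of 45 bases were identical without a gap, and the longest identical run was 23 bases. IAA3, which fell without overlap, held neither motif in this window.

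TGTCTC was found in 16 of the 35 promoters (45.7%), beside 14.3% of 33487 promoters of all genes, and TGTCGG in 6 of 35 (17.1%), beside 5.06%. At least 1 of the motifs was in 20 of 35 (57.1%), beside 18.7% of all promoters. GH3.1, GH3.2, GH3.3 and GH3.5 had TGTCTC, while GH3.6 and PID had neither motif in the window. By outcome, at least 1 motif was present in 4 of the 6 genes called higher, 8 of the 14 called lower, 5 of the 11 not called and 3 of the 4 not tested. The matches are letters in a window and were not shown to be sites.

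Several of the genes are also neighbours. IAA3 and IAA17 lie 6388 bases apart on chromosome 1, IAA14 and IAA1 10732 bases apart on chromosome 4, and IAA2 and IAA7 12510 bases apart on chromosome 3, each pair transcribed away from each other with 1 gene between. In the first pair both genes were lower in zdp-1 ape2-2, at -0.43 and -0.14. In the other pairs IAA14 and IAA2 were lower, at -0.16 and -0.15, and IAA1 and IAA7 were not called.

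Other genes of the pathway were read from lists of their names, 143 tested genes in all, of which 26 were higher (18.2%) and 43 lower (30.1%), beside 22.2% and 21.2% of all genes tested. Many of the lists are short, and 1 gene moves their share widely. The auxin receptors gave 1 higher and 1 lower of 6, with a median log2 fold change of 0.03: TIR1 was lower, at -0.13, and AFB5 higher, at 0.08 (edgeR adjusted p = 0.000148 and 0.0455). The call of AFB5 was marginal: no receptor was higher with DESeq2, or without zdp-1 ape2-2 A, zdp-1 ape2-2 C or Col-0 C. Of the TOPLESS co-repressors, which Aux/IAA proteins recruit, 4 of 5 were lower by at most 0.13, among them TPR1 (-0.13), TPR4 (-0.10) and TPL (-0.07). None was called lower with library totals alone, where 2717 of all 21182 genes tested were, against 4498 in the main fit. Copies of at least 90% identity cover 21.7% of the exon bases of TPL and 19.7% of TPR1. Of 15 auxin response factors, 3 were higher and 5 lower, with ARF11 changing most in the lower direction. ARF11 had 4.55, 4.82 and 4.63 RPKM in zdp-1 ape2-2 and 6.98, 6.04 and 6.62 in Col-0, without overlap, a log2 fold change of -0.49 ± 0.06 (SE; edgeR adjusted p = 3.35e-09). ARF1 and ARF2 were lower by less, at -0.22 and -0.16. The 3 higher ones were ARF5, at 0.25 (edgeR adjusted p = 3.15e-06), and ARF3 and ARF4, both at 0.13.

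Of 6 enzymes that inactivate auxin or release it from conjugates, 4 were higher and none lower, with a median of 0.27. Among all genes tested 22.2% were higher and 21.2% lower. The list holds enzymes of opposing function, so its median is not a measure of either. Under an assumed coefficient of variation of 0.1 only 1 was higher, beside 1668 of all 21182 genes tested. IAR3, an amidohydrolase that releases amino acids from auxin and jasmonate conjugates and so opposes GH3 enzymes, had 26.3, 24.8 and 24.4 RPKM in zdp-1 ape2-2 and 17.7, 19.2 and 18.5 in Col-0. The genotypes did not overlap, and the log2 fold change was 0.45 ± 0.04 (SE; edgeR adjusted p = 1.66e-12). DAO1, a dioxygenase that oxidizes auxin, had 6.75, 6.53 and 6.73 RPKM in zdp-1 ape2-2 and 5.50, 5.55 and 4.87 in Col-0, a change of 0.32 (edgeR adjusted p = 0.00016). ILL2, another amidohydrolase, changed by 0.25, with copies of at least 90% identity over 34.5% of its exon bases. Of 5 tested GH3 enzymes outside the group described here, 2 were higher and 2 lower. PBS3, a GH3 enzyme of salicylate synthesis, had 2.99, 3.3 and 3.08 RPKM in zdp-1 ape2-2 and 2.00, 2.09 and 1.89 in Col-0, a change of 0.64 (edgeR adjusted p = 1.3e-08). GH3.9 was higher by 0.38 and DFL2 changed by -0.26.

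**Figure D5:**
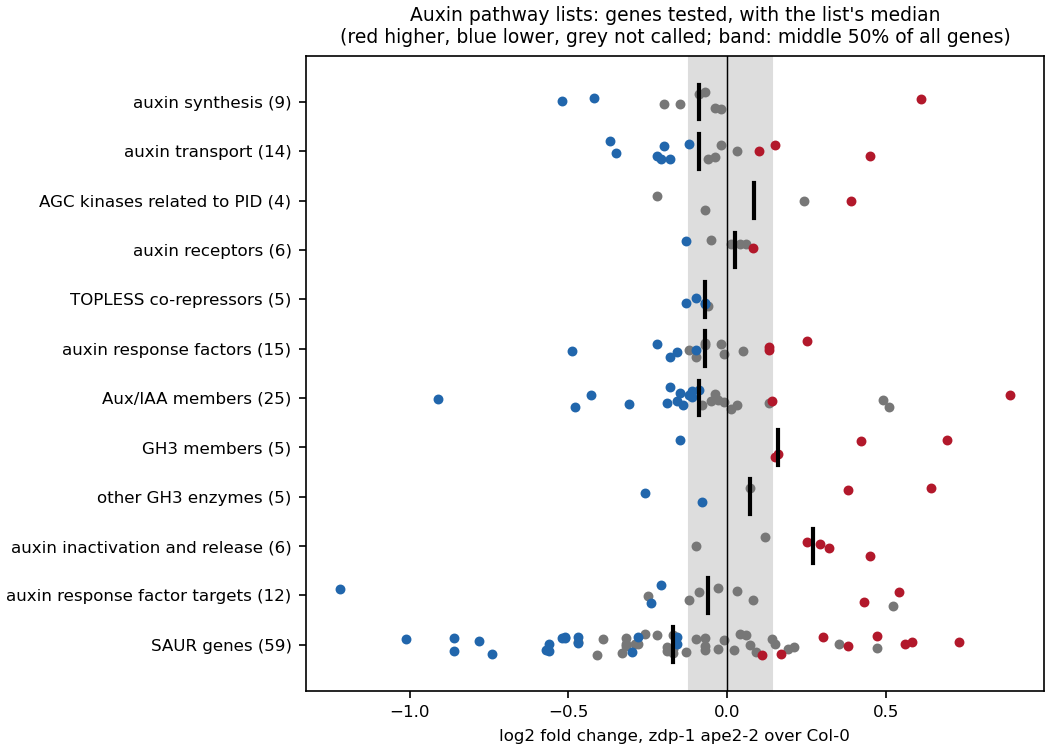
Log2 fold change of each tested gene of the auxin lists, zdp-1 ape2-2 over Col-0, with the number tested in brackets and the median of each list as a black bar; red genes were called higher, blue lower and grey not called, and the band is the middle 50% of all genes tested. The list of inactivation and release lies to the right (median 0.27) and the SAUR genes to the left (median -0.17).

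Genes of auxin supply gave mixed results, to be read beside 22.2% higher and 21.2% lower among all genes tested. In synthesis, 1 of 9 was higher and 2 were lower: the aminotransferase gene TAR2 changed by -0.42 (edgeR adjusted p = 7.05e-08), the monooxygenase gene YUC3 by -0.52 and YUC5 by 0.61. In transport, 3 of 14 were higher and 7 lower, including the exporters PIN4, at -0.37 (edgeR adjusted p = 1.42e-13), and PIN7, at -0.22, and the transporter ABCB19, at -0.20. Of the 4 kinases related to PID, PID2 was higher, at 0.39 (edgeR adjusted p = 0.00169), and none was lower.

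Other response genes did not move as one group. Among all genes tested 22.2% were higher and 21.2% lower. The SAUR genes, small auxin-induced genes that act in cell expansion, gave 8 higher (13.6%) and 17 lower (28.8%) of 59 tested, with a median of -0.17. AT4G38860 had 19.3, 20.3 and 20.0 RPKM in zdp-1 ape2-2 and 36.3, 37.0 and 34.9 in Col-0, a change of -0.86 (edgeR adjusted p = 5.78e-20). AT4G38840 changed by -0.56 and AT4G34760 by -0.51. Of 12 other targets of auxin response factors, 2 were higher and 3 lower. ACS4, an auxin-induced gene of ethylene synthesis, had 44, 52 and 54 counts in zdp-1 ape2-2 and 112, 103 and 101 in Col-0, without overlap, a change of -1.22 ± 0.14 (SE; edgeR adjusted p = 2.4e-09), larger in size than that of any Aux/IAA or GH3 gene tested. TMO5 and TMO7, targets of MONOPTEROS (ARF5), changed by -0.21 and -0.24, and ARF5 itself by 0.25. In this list of 12 targets, DESeq2 called 0 higher and 2 lower. Only 1 was lower without zdp-1 ape2-2 C, and only 1 without Col-0 B. Of 8 shade and PIF genes, which are PIF transcription factors and shade-responsive genes, 1 was higher and 2 lower: PIF3 was at 0.14, PIF4 at -0.17 and PIF7 at -0.21.

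Whole seedlings mix organs in which these genes differ in level, and markers of shoot tissue moved with genotype. Of 8 shoot markers 7 were lower and 1 higher, with a median of -0.45, beside 21.2% lower and 22.2% higher among all genes tested. Their summed level was 20720, 20510 and 20930 CPM in zdp-1 ape2-2 and 26800, 26500 and 27420 in Col-0, and it is almost wholly that of the photosynthesis genes RBCS1A, LHCB1.1, LHCB1.2 and PSAD1. The higher one was STM, a homeobox gene of the shoot meristem, with 3.92 ± 0.108 RPKM in zdp-1 ape2-2 and 1.92 ± 0.0258 in Col-0 (SD, n = 3 each), a change of 1.02 (edgeR adjusted p = 3.92e-12), the largest in size of the list. The stomatal lineage genes FAMA and TMM were lower and changed by -39.9% and -27.4%. GLK1 changed by -0.50, and the light-harvesting genes LHCB1.1 and LHCB1.2 by -0.53 and -0.43, with copies over 87.7% and 98.5% of their exon bases. Of 12 root markers 1 was higher and 3 were lower, with a median of 0.01. Their summed level was 150.7, 152.2 and 160.1 CPM in zdp-1 ape2-2 and 164.8, 163 and 156.7 in Col-0, with overlap. FRO2, CASP1 and IRT1 were the lower ones, at -0.55, -0.34 and -0.26. The part of these markers in the changes of Aux/IAA and GH3 genes was not tested.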

How the data were processed

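RNA-seq of polyadenylated RNA covered 6 libraries, 3 of zdp-1 ape2-2 and 3 of Col-0, grouped by title and genotype label. The authors deposited whole-number read counts per gene, 1 table per sample, not normalised. STAR and TAIR10 are named per the submitters' processing notes. How reads were counted per gene (tool, strand, annotation version, reads that map to several places) is not given in the sources used here. Exons of 9962 of the 33489 genes overlap another gene, including 39.6% of IAA3, 35.3% of IAA13, 44.2% of IAA32, 27.6% of IAA10, 12.3% of IAA34 and 6.15% of IAA5, and reads of antisense partners cannot be told apart. Copies of at least 90% identity cover 14.0% of the exon bases of IAA14, 12.0% of IAA13, 10.4% of IAA30, 10.3% of IAA20, 8.41% of IAA4, 7.68% of IAA5, 6.63% of IAA12, 4.7% of GH3.2, 3.8% of IAA17 and 2.92% of IAA8 (BLAST 2.17.0).

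Computed here, with edgeR 4.0.16 in R 4.3.3: filterByExpr (21182 genes kept), TMM factors, and the two-sided quasi-likelihood F test with genotype as the only term and Benjamini-Hochberg adjustment over all genes tested, called below 0.05. The common biological coefficient of variation was 1.99%, and a chi-square of counts within genotypes gave 1.57 to 1.96 per gene, so no library was another one deposited again. DESeq2 1.42.0 was an alternative. The fit was also run on counts simulated with the common coefficient of variation for every gene, which cannot show whether the small calls are sound. From the table of each sample only the column of counts was read.

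The genes and lists were chosen with earlier results of these data known. All 35 genes are given. From each list up to 3 called genes with the smallest p are named. Beyond these, all 8 shoot markers and the 3 response factors called higher are named. AT1G04230 was added for its overlap with IAA3. All 33489 identifiers matched TAIR10.1, and 33309 had the same coordinates there, the 35 genes included. The degron core was to be read from RefSeq proteins, and was found in the coding sequence of TAIR10.1 instead, as Gly-Trp-Pro-Pro codons in frame.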

Additional observations from a re-analysis of the deposited data

How the results depend on the processing

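Main counts were 6 genes higher and 14 lower of 31. With library totals alone 6 were lower, beside 2717 of all 21182 genes tested, against 4498 in the main fit. The uncalled changes of IAA4, IAA7, IAA9 and IAA11 then turned to 0.01, 0.05, 0.02 and 0.03. The DESeq2 Wald test gave 4 higher and 9 lower, beside 3474 higher and 3329 lower of all genes. An assumed coefficient of variation of 0.1 left 2 higher (IAA5 and GH3.3), 2 lower (IAA3 and IAA6) and 28 of 69 calls in the pathway lists. Of all genes it left 1668 higher and 760 lower. A minimum of 1.5-fold left 2 higher and 1 lower, beside 1163 higher and 337 lower of all genes. Leaving out 1 library gave 4 to 6 higher and 10 to 14 lower, beside 4220 to 4397 higher and 3994 to 4224 lower of all genes. It turned uncalled changes round in IAA1 (-0.04 to 0.09), IAA4 (-0.12 to 0.02), IAA10 (-0.18 to 0.03), IAA11 (-0.09 to 0.00) and IAA27 (-0.03 to 0.04), and without zdp-1 ape2-2 B IAA4 was called lower. Library letters were not treated as pairs, and a replicate block gave 6 higher and 14 lower, the same genes. IAA3, IAA5 and GH3.3 kept their calls under all 13 alternatives in which they were fitted, and IAA6 under 12, not tested at a minimum mean of 1 CPM. Their ranges were -0.47 to -0.37, 0.78 to 1.13, 0.68 to 0.76 and -1.19 to -0.79. The causes of these shifts were not tested. Depth limits IAA15, IAA20, IAA33 and IAA34, with under 40 counts per genotype.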
